A study of Mus musculus with 5 samples.

Results

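Axon guidance ligands and receptors were followed in single nuclei of the mouse central amygdala (CeA) and its immediate surroundings. The set was every gene of the semaphorin, plexin, neuropilin, Slit, Robo, netrin, DCC and Unc5, Eph receptor and ephrin families, taken by gene symbol from the 22532 genes of the files. The spelling rule matched 72 symbols, and 1 of them, Unc50, is not a guidance gene and was set aside, which left 71 guidance genes: 20 semaphorins, 9 plexins, 2 neuropilins, 3 Slits, 4 Robos, 6 netrins and netrin-G proteins, 5 receptors of the DCC and Unc5 group, 14 Eph receptors and 8 ephrins. They were measured in 5 libraries of C57BL6 mouse tissue (C57BL/6NRj for the wild-type animals and a C57BL/6N background for transgenic ones, per the study's methods), 3 from fed and 2 from fasted mice. Fed replicates 1 and 2 came from naive mice of 8 weeks, and fed replicate 3 came from Htr2a-Cre mice of 12 weeks that carried a virus with Cre-dependent mCherry. Fasted replicates 1 and 2 came from mice of 8 weeks without food for 20 and, per its label, 21 hours. In every library CeA tissue of 2 animals, 1 of each sex, was combined, so a library is 1 sample here and the spread between libraries includes preparation. The study put its fed and fasted libraries numbered 1 in 1 preparation, those numbered 2 in another and a further fed library in its own. The replicates are matched to these by number here, with fed replicate 3 as the further library. Neither the study nor the labels state this match.

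These proteins steer growing axons. Semaphorins act through plexins, and most secreted ones also need a neuropilin, while Slits act through Robos. Netrins attract through DCC and repel through Unc5 receptors, and ephrins bind Eph receptors on the neighbouring cell and can signal in both directions. In the adult brain the same molecules remain at synapses and on glia, where they take part in spine and synapse maintenance, in cell adhesion and in myelination. The netrin-G proteins Ntng1 and Ntng2 are anchored to the membrane and bind partners at synapses rather than DCC.

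Of 23839 barcodes, 7161 nuclei had 500 to 8000 genes and less than 0.8% mitochondrial counts, with 1130 to 1734 nuclei per library and a median of 6608 to 16367 molecules (UMIs) per nucleus. The median mitochondrial share was 0.0529 to 0.136% in the fed and 0.237 and 0.317% in the fasted libraries. Nuclei were placed in classes by marker genes that are not guidance genes, and each neuron class is called a gate and named after markers used for it. The Nts/Tac2 gate was taken on Dnah5, Vipr2, Nts and Tac2, at means of 721, 396.5, 86.5 and 174 CPM. The Sst/Ebf1 gate was taken on Sst and Ebf1, at 142 and 1702 CPM. The study lists Ebf1 among further markers of its Il1rapl2 cluster that also occur elsewhere. There were 5632 inhibitory neurons, 456 astrocytes, 187 oligodendrocytes and 127 oligodendrocyte precursors, and 11 neuron gates held at least 10 nuclei in every library, from 100 nuclei in the Rai14 gate to 555 in the Rarb gate. Most of these gates carry markers that the study used for CeA neuron types. The study placed neurons with Pde1c, Rarb or Foxp2 outside the CeA, in the IPAC nucleus, the amygdalostriatal area and the intercalated cells. The Nkx2-1 gate rests on Nkx2-1 and Lhx6, which are known from interneurons, at 45.3 and 207 CPM. The study assigned its clusters with Nkx2-1 to interneurons of the basolateral amygdala, not to the CeA. The glial classes carried their markers: Slc1a3 was at 3023 CPM in astrocytes and 11.1 CPM in inhibitory neurons, Mbp at 5511 and 92.7 CPM in oligodendrocytes and inhibitory neurons, and Pdgfra at 892 CPM in oligodendrocyte precursors. Gad1, a marker of inhibitory neurons, was also found in glia, at 39.7, 75.0 and 64.3 CPM in astrocytes, oligodendrocytes and precursors. In inhibitory neurons Gad1 was at 145 CPM. The precursor markers together reached 12640 to 16970 CPM in precursors and 2142 to 2416 CPM in inhibitory neurons. Excitatory neurons, microglia, vascular cells and the Tac1 and Vdr gates had too few nuclei for a test. CPM stands for the UMIs of a gene per 1000000 UMIs of that class in that library. Since reads from introns were counted, levels are compared between classes and not between genes. At most 1 kept barcode was shared by any pair of libraries, 3 in all.

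Guidance genes were called between the neuron gates at a higher rate than all genes tested. Each gate was set against the mean of the other 10 gates, with the libraries as blocks, in 9548 genes that passed the filter on low counts. A gene that is high in a single gate can pass this filter. Of the 71 guidance genes 51 passed it, and 323 of their 561 tests (57.6%) were past an adjusted p of 0.05 (edgeR quasi-likelihood test, Benjamini-Hochberg over all genes), 184 higher and 139 lower, where 24.3% of all tests were. Since a gate enters the mean of the others, the 11 contrasts are not independent. The filter left out 20 guidance genes with few UMIs in neurons, among them Efna1 to Efna4, Epha1, Epha2, Robo3, Robo4, Sema3b, Sema3g and Ntn5. Ntn5 and Robo4 had 0 UMIs among the 80012495 UMIs of the inhibitory neurons, which allows up to 0.0375 CPM, a limit for counting error only. Of the 51 tested guidance genes 50 were called in at least 1 gate, and the exception was the transmembrane semaphorin Sema6b, whose mean per gate lay between 29.3 and 39.9 CPM. The share of all genes called in at least 1 gate was not counted, while 12.6 to 39.8% of all genes were called in each single gate. From the lowest to the highest gate the mean level rose by a median factor of 5.64, by over 10 in 17 genes and by under 2 in 4 genes, and no factor could be given for Ntn4, which had 0 UMIs in 2 gates. Orders of gates are given among the 11 tested gates. The Vdr and Tac1 gates, too small for a test, are outside them and lay higher for some genes: Dcc was at 2720 to 3934 CPM and Sema3a at 458 to 725 CPM in the Vdr gate, Slit1 at a mean of 151 CPM and Nrp2 at 185 to 242 CPM in the Tac1 gate, and Plxna4 at means of 1010.5 and 975 CPM in the Vdr and Tac1 gates. For 3 genes every library of the highest tested gate lay above every library of the gate with the next highest mean. These were Ntng1 and Sema5b in the Foxp2 gate and Sema3a in the Sst/Ebf1 gate. Ntng1 did overlap with the Nkx2-1 gate, which reached 289 CPM in fasted replicate 1, where the Foxp2 gate was at 229 CPM.

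**Figure D1:**
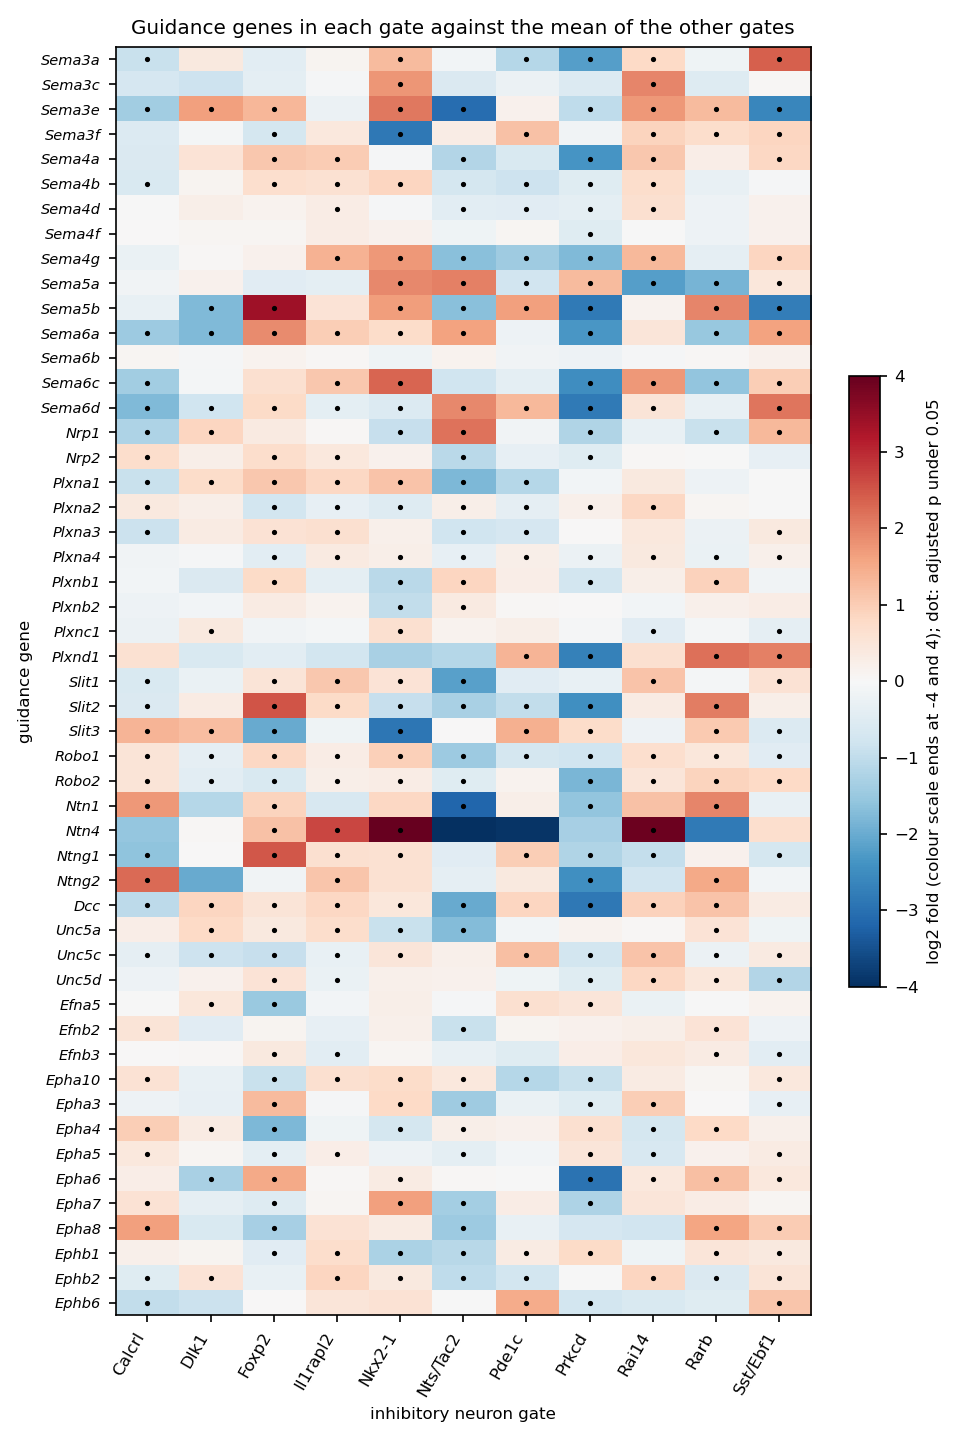
Log2 fold of the 51 tested guidance genes (rows) in each of 11 inhibitory neuron gates (columns) against the mean of the other gates, red higher and blue lower, with a dot where the adjusted p was under 0.05. The Prkcd and Nts/Tac2 columns are mostly blue, with 30 and 24 lower calls, and the Ntn4 row holds values beyond the ends of the colour scale.

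The gates fell into those with more higher calls and those with more lower calls. The Prkcd gate, marked by the gene of protein kinase C delta, had 37 of 51 guidance genes called, 7 higher and 30 lower, where 39.8% of all genes were called and 20.6% were higher. The median log2 difference of the guidance genes there was -0.55, beside 0.01 over all genes. In the Nts/Tac2 gate 33 were called, 9 higher and 24 lower, against 30.2% called and 16.4% higher over all genes, and the median was -0.44. These were the pair of gates where lower calls outnumbered higher ones by over 10 genes. The reverse held in the Il1rapl2 gate, with 28 called and 23 of them higher (23.7% and 13.5% over all genes), and in the Rai14 gate, with 27 called and 22 higher (14.9% and 8.8%). The Nkx2-1 gate had 35 called, 24 higher, against 36.2% and 19.1% over all genes. For the Foxp2 gate 35 were called, 22 higher (23.7% and 12.9%), for the Sst/Ebf1 gate 31, of which 22 higher (18.6% and 11.4%), and for the Rarb gate 27, of which 20 higher (21.9% and 12.9%). The Calcrl gate was near balance with 13 higher and 16 lower (23.3% called and 13.1% higher over all genes), as were the Pde1c gate with 12 and 12 (22.1% and 12.7%) and the Dlk1 gate with 10 and 7 (12.6% and 6.67%). Each gate's share of called guidance genes, 33.3 to 72.5%, was above the share of all genes in that gate.

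Promoter sequence is printed for some of the leading genes of the Rarb and Nkx2-1 gates and of the oligodendrocyte lineage, to show what lies just before their start sites beside the factors that mark those nuclei. The RefSeq windows of 250 bases before the start (build GRCm38.p6) held 61 of the 71 guidance genes; Slit1 is not among them. In all 7 motifs were searched on both strands, and the capitals in the sequences mark any match. Plxnd1, a semaphorin receptor gene, and Slit2, a Robo ligand gene, were highest or second highest in the Rarb gate, which is marked by a retinoic acid receptor gene, and the netrin gene Ntn4 led the Nkx2-1 gate.

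Plxnd1 (chr6:115995006-115995255, minus strand): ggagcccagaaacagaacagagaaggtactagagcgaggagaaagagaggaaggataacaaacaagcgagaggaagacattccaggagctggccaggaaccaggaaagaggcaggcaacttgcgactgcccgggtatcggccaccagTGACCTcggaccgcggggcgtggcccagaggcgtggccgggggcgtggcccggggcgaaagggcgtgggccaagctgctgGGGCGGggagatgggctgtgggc
Slit2 (chr5:47982905-47983154, plus strand): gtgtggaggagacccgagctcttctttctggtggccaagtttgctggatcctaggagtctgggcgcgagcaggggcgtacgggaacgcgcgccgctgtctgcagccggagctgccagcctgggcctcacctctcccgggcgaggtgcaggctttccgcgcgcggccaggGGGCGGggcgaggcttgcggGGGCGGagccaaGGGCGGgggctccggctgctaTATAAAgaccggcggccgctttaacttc
Ntn4 (chr10:93640799-93641048, plus strand): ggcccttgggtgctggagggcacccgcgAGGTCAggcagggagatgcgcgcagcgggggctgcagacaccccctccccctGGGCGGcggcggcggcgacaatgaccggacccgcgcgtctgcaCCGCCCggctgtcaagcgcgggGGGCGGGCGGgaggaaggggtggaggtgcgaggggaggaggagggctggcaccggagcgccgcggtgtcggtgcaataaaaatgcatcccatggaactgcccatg

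The Plxnd1 window held the retinoid receptor core AGGTCA once, on the other strand, and a GC box (GGGCGG). The Slit2 window held no receptor core but had 3 GC boxes and a TATA box (TATAAA) whose first base lies 28 bases before the start. The Ntn4 window held 1 receptor core and 4 GC boxes, of which a pair overlaps, and no NKX2-1 core (CAAGTG). Of the leading genes that are not printed, the semaphorin gene Sema5b of the Rarb gate had no match to any of the motifs. The windows of Sema5a and Sema6c, of the Nkx2-1 gate, held no NKX2-1 core either. Over the 27025 windows of all genes AGGTCA was found in 13.8% and over the guidance genes in 8 of 61. GGGCGG was found in 32.9% and in 44 of 61, and TATAAA in 13% and in 2 of 61. The GC box was the only motif with a higher share among guidance genes, 72.1%, than over all windows, and the other motifs had lower shares. The windows of all genes are not limited to genes measured or tested here, so the sets differ in more than guidance function. CAAGTG occurred in 11.6% of all windows and 5 of 61, and the forkhead core TGTTTAC in 3.09% and 0 of 61.

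Semaphorins, the largest family, had 15 of 20 members tested and 91 of 165 tests called (55.2%, beside 24.3% of all tests), 50 higher and 41 lower. Sema5b, a transmembrane semaphorin with thrombospondin repeats, separated the Foxp2 gate from the rest, at 199.9, 183 and 188 CPM in the fed libraries and 144 and 157 CPM in the fasted ones. Every one of these values exceeded every value of the next gate, Rarb, at 50.2 to 92.2 CPM, and the log2 difference from the other gates was 3.39 ± 0.17 (SE), adjusted p = 1.78e-24. In the Sst/Ebf1, Prkcd and Nts/Tac2 gates Sema5b was near the bottom, with means of 4.12, 4.22 and 6.75 CPM. Its relative Sema5a had another order: it was highest in the Nts/Tac2 gate, at 215, 218 and 169 CPM in the fed libraries and 233 and 226 CPM in the fasted ones, higher also in the Nkx2-1 gate (1.93) and the Prkcd gate (1.27), and lower in the Rai14 gate (-2.21) and the Rarb gate (-1.87). Sema5a and Sema5b were thus called in opposite directions in the Nts/Tac2, Prkcd, Sst/Ebf1, Rarb and Pde1c gates.

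Sema3a, a secreted repellent that binds neuropilin 1, was highest of the tested gates in the Sst/Ebf1 gate, at 393, 397 and 220.0 CPM in the fed libraries and 278 and 309 CPM in the fasted ones, with a log2 difference of 2.38 ± 0.11 and adjusted p = 1.52e-25. The next gate, Nkx2-1, ran from 138 to 162 CPM, and the lowest, Prkcd, from 11.1 to 24.7 CPM, so the gates did not overlap. Sema3e, the ligand of plexin D1, was higher in the Dlk1 gate (85.6 ± 20.3 CPM, SD, n = 5, log2 difference 1.64 ± 0.29) and also in the Nkx2-1, Rai14, Foxp2 and Rarb gates, whose ranges overlapped it, and lower in the Nts/Tac2 gate (3.24 ± 2.75 CPM) and the Sst/Ebf1 gate (4.90 ± 4.57 CPM). Its receptor gene Plxnd1 was highest in the Rarb gate, at 33.6, 18.3, 20.4, 33.3 and 20.4 CPM in fed replicates 1 to 3 and fasted replicates 1 and 2, and in the Sst/Ebf1 gate, at 29.6, 16.2, 23.0, 32.2 and 15.0 CPM. The log2 differences were 2.22 ± 0.23 and 2.02 ± 0.22. The Rarb gate therefore had both Sema3e and Plxnd1 called higher, while the Sst/Ebf1 gate had Plxnd1 higher and Sema3e lower. The Plxnd1 levels rest on few molecules, 157 and 169 UMIs in these gates. Plxnd1 could pass the filter on low counts through them, so its calls are no support apart from the levels.

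Sema6d, a transmembrane semaphorin that binds plexin A1, had a wide range between gates. It was at 2189.7, 2291 and 1488 CPM in the fed libraries and 1511 and 1570.4 CPM in the fasted ones of the Sst/Ebf1 gate and at 1521, 2225, 1293, 1495 and 1263 CPM in the same order in the Nts/Tac2 gate. In the Prkcd gate it was at 74.3, 85.6, 82.0, 87.3 and 73.6 CPM, so the 5 libraries lay within a narrow band and all below those of every other tested gate. The log2 differences were 2.13 ± 0.11, 1.92 ± 0.11 and -2.82 ± 0.18 in the Sst/Ebf1, Nts/Tac2 and Prkcd gates. Sema6c and Sema4g, both membrane-bound, were both called higher in the Nkx2-1, Rai14, Il1rapl2 and Sst/Ebf1 gates. Sema6c had log2 differences of 2.32 ± 0.23, 1.72 ± 0.30 and 1.07 ± 0.22 in the first 3 of these, and Sema4g of 1.73 ± 0.17, 1.28 ± 0.22 and 1.40 ± 0.15. Both were lowest in the Prkcd gate, at 1.72 ± 1.11 CPM and 5.09 ± 2.52 CPM. Sema6c is low, with 39 UMIs in the Rai14 gate and 10 in the Prkcd gate. It could pass the filter on low counts through the gates where it is higher, so its calls are no support apart from the levels.

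**Figure D2:**
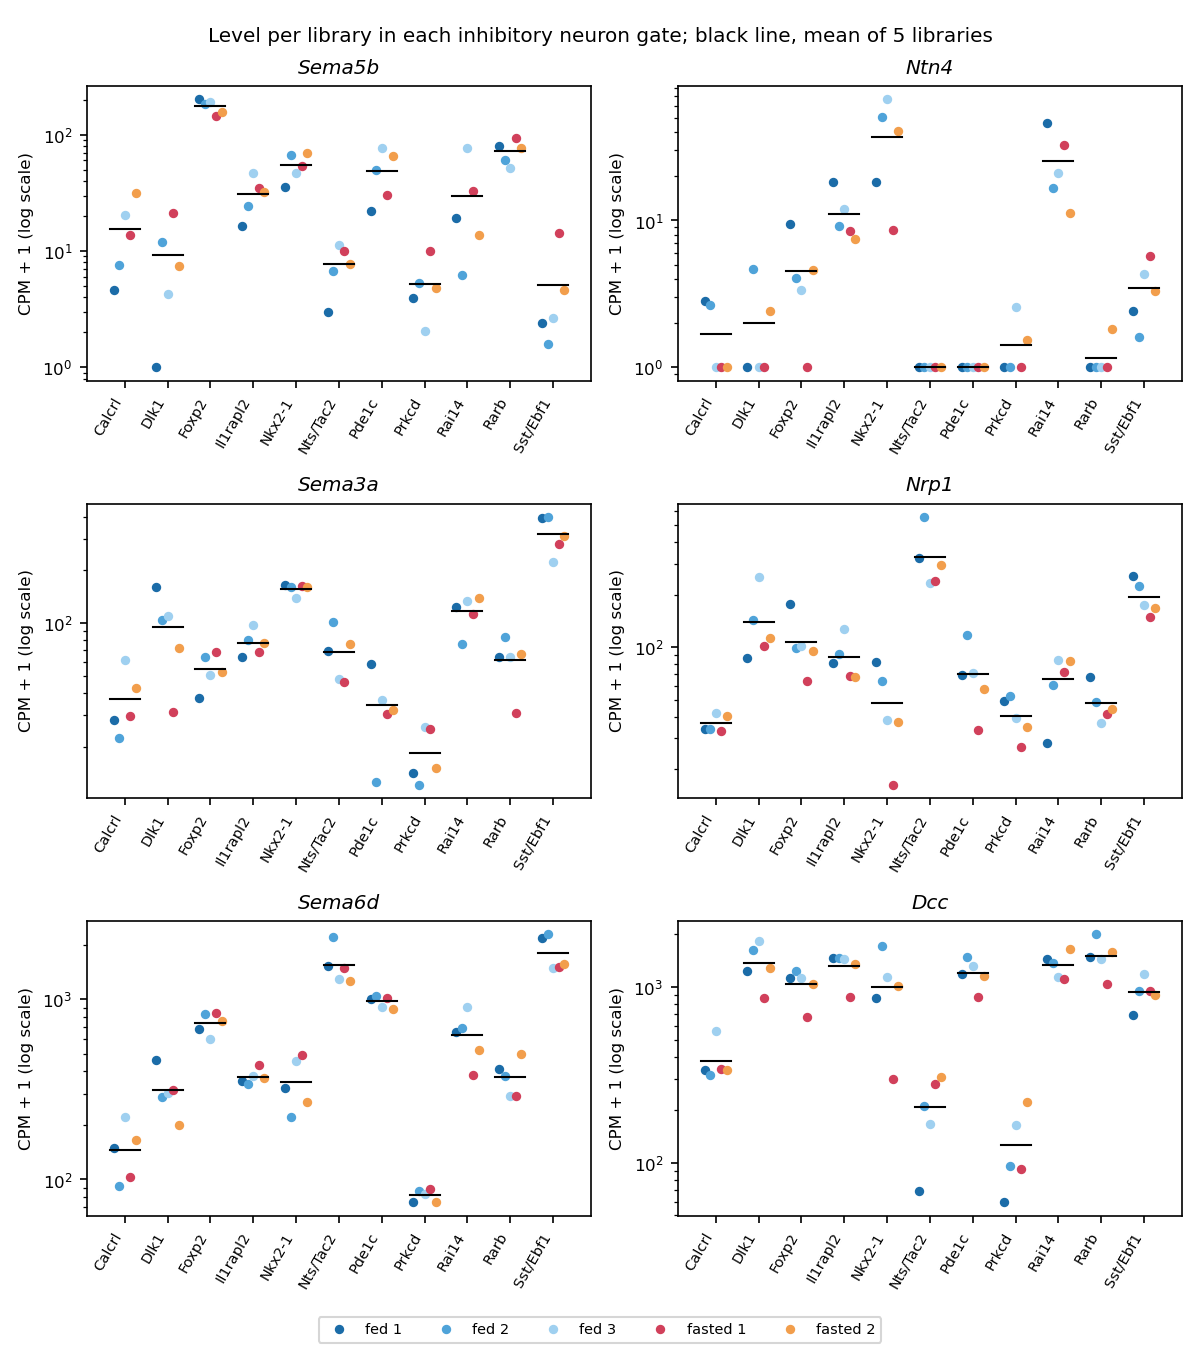
Level of 6 guidance genes (CPM + 1, log scale) in each library and inhibitory neuron gate, with blue points for fed libraries, red and orange points for fasted ones and a black line for the mean of 5 libraries. Sema5b peaks in the Foxp2 gate, Sema3a and Sema6d in the Sst/Ebf1 gate, Nrp1 in the Nts/Tac2 gate and Ntn4 in the Nkx2-1 gate, while Dcc and Sema6d are lowest in the Prkcd gate.

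Among the semaphorin receptors, the neuropilins and plexins had 12 of 22 (54.5%) and 45 of 88 tests (51.1%) called, beside 24.3% of all tests. Nrp1, the co-receptor of the secreted class 3 semaphorins and of vascular endothelial growth factor, was highest in the Nts/Tac2 gate, at 323, 557 and 231 CPM in the fed libraries and 237 and 296 CPM in the fasted ones. Fed replicate 2 stood above the other libraries, and all 5 lay above the Calcrl gate, the lowest, at 32.0 to 40.9 CPM. The log2 difference in the Nts/Tac2 gate was 2.17 ± 0.13, adjusted p = 7.57e-22, and Nrp1 was also higher in the Sst/Ebf1 gate (1.30) and the Dlk1 gate (0.85). Nrp2, its paralog with a preference for other class 3 ligands, was lowest in the Nts/Tac2 gate, at 43.5 ± 12.9 CPM against 129 ± 41.1 CPM in the Foxp2 gate. In the Nts/Tac2 gate Nrp1 and Nrp2 were called in opposite directions, 2.17 ± 0.13 and -1.08 ± 0.18. The A-type plexin Plxna4, a signalling partner of neuropilins, was much more even. Its means in the tested gates ran only from 527 ± 55.3 CPM in the Foxp2 gate to 891 ± 184 CPM in the Rai14 gate, although 9 of 11 contrasts were called.

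The 3 Slits had 23 of 33 tests called (69.7%), and the receptor genes Robo1 and Robo2 had 21 of 22 (95.5%), beside 24.3% of all tests. The Slit genes encode secreted repellents, and they did not share an order of gates. Slit2 was highest in the Foxp2 gate, at 301, 729, 459, 314 and 516 CPM in fed replicates 1 to 3 and fasted replicates 1 and 2, and in the Rarb gate, at 305, 341, 402, 294 and 327 CPM, with log2 differences of 2.52 ± 0.11 and 2.05 ± 0.11. The lowest level of Slit2 was in the Prkcd gate, at 8.74, 13.7, 31.6, 18.1 and 26.2 CPM. Slit3 ran the other way for the Foxp2 gate: it was among the lowest there, at 136 ± 41.7 CPM, and highest in the Calcrl, Dlk1 and Pde1c gates, at 1095 ± 123 CPM, 1084 ± 209 CPM and 1064 ± 114 CPM, which overlapped one another. Slit3 was called higher in these gates (1.36 ± 0.09, 1.24 ± 0.10 and 1.42 ± 0.10), in the Rarb gate and in the Prkcd gate, and lower in the Foxp2 gate (-2.02 ± 0.14), the Nkx2-1 gate (-2.88 ± 0.16) and the Sst/Ebf1 gate. Slit1 was highest of the tested gates in the Rai14 and Il1rapl2 gates, at 120.2 ± 44.6 CPM and 119.9 ± 28.8 CPM, and lowest in the Nts/Tac2 gate, at 13.9 ± 14.1 CPM. The receptor gene Robo1 was lowest in the Nts/Tac2 gate, at 552 to 666 CPM, and Robo2 in the Prkcd gate, at 125 to 211 CPM. In both cases all 5 libraries lay below all libraries of the highest gates, Nkx2-1 for Robo1 (2408 to 2961 CPM) and Rarb for Robo2 (786 to 1101 CPM).

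The netrins had 21 of 44 tests called (47.7%, beside 24.3% of all tests), 14 higher and 7 lower. Ntn4, a laminin-binding secreted netrin, was highest in the Nkx2-1 gate, at 17.4, 49.3 and 65.6 CPM in the fed libraries and 7.61 and 39.6 CPM in the fasted ones, and in the Rai14 gate, at 45.3, 15.6, 19.9, 31.7 and 10.2 CPM, in the same order. It had 0 UMIs in the Nts/Tac2 and Pde1c gates, which hold 3802530 and 2956334 UMIs, so that its mean in the Nkx2-1 gate was at least 45.5-fold and 35.4-fold above the 3 UMIs that a count of 0 allows over each gate. By edgeR's quasi-likelihood test the adjusted p was 3.73e-19 for the Nkx2-1 gate and 3.44e-09 for the Rai14 gate. Ntn4 could pass the filter on low counts through these gates, so these p-values are no support apart from the levels. Ntn4 was also called higher in the Il1rapl2 gate, at 10.0 ± 4.31 CPM, and in the Foxp2 gate, with 17 UMIs. The netrin-G gene Ntng1 was highest in the Foxp2 gate, at 428, 618, 439, 229 and 507 CPM, with a log2 difference of 2.48 ± 0.15. Its next gate by mean, Pde1c, ran from 115 to 207 CPM, and the Nkx2-1 gate ran from 87.0 to 289 CPM and overlapped the Foxp2 gate. Its paralog Ntng2 was instead highest in the Calcrl gate, at 16.9 ± 2.94 CPM, where Ntng1 was lowest, at 33.8 ± 22.7 CPM. In that gate the log2 differences were 2.26 ± 0.36 for Ntng2 and -1.60 ± 0.27 for Ntng1. Ntng2 is low and could pass the filter on low counts through this gate, so its call is no support apart from the levels.

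The netrin receptor gene Dcc split the tested gates into high and low ones. It was highest of them in the Rarb gate, at 1479, 1997, 1446, 1048 and 1587 CPM, and 8 of 11 gates had means from 932 to 1511 CPM. Below these were the Calcrl gate at 313 to 559 CPM, the Nts/Tac2 gate at 68.2 to 306 CPM and the Prkcd gate at 58.3 to 222 CPM, with log2 differences of -1.06 ± 0.18, -2.02 ± 0.20 and -2.85 ± 0.21. Dcc was called higher in 7 gates, among them the Dlk1 gate (0.87 ± 0.16). Unc5d, a receptor that converts netrin attraction into repulsion, was lowest in the Sst/Ebf1 gate, at 640.2 ± 64.5 CPM (log2 difference -1.19 ± 0.09), and highest in the Rai14 gate, at 2228 ± 278 CPM. The gates with little Dcc thus still had Unc5d, at 1469 ± 240.4 CPM in the Nts/Tac2 gate and from 846 to 1135 CPM in the Prkcd gate.

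Eph receptors had 67 of 110 tests called (60.9%) and ephrins 11 of 33 (33.3%), beside 24.3% of all tests. Epha6, a receptor of A-type ephrins, was highest in the Foxp2 gate, at 2750.2, 3159.6, 2176, 1967 and 2444 CPM, and lowest in the Prkcd gate, at 58.3, 151, 188, 184 and 186 CPM, with log2 differences of 1.51 ± 0.10 and -2.94 ± 0.15. Epha4, which binds ephrins of both the A and B type, had the reverse order in these gates: it was low in the Foxp2 gate, at 45.0 to 71.1 CPM, and higher in the Prkcd gate, at 235 to 345 CPM, and the Calcrl gate, at 285 to 389 CPM, with a log2 difference of 0.99 ± 0.07 in the last. Ephb1 was highest in the Prkcd gate, at 527 ± 44.0 CPM (0.76 ± 0.10), without separating from the Il1rapl2 gate at 516 ± 64.6 CPM. The kinase-inactive Ephb6 was highest in the Pde1c gate, at 26.3 ± 10.4 CPM (1.49 ± 0.21). Ephb6 rests on 72 UMIs there and could pass the filter on low counts through this gate, so its call is no support apart from the levels. The ligand gene Efna5 was called lower in 1 gate, Foxp2, at 97.2 to 189 CPM, where the other 10 gates had means of 352 to 569 CPM, and its log2 difference there was -1.47 ± 0.13.

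The Prkcd gate had many guidance genes below the other gates and few above them. The 30 lower genes included Epha6 (-2.94), Dcc (-2.85), Sema5b (-2.83), Sema6d (-2.82), Plxnd1 (-2.70), Slit2 (-2.44), Sema3a (-2.22), Robo2 (-1.83) and Nrp1 (-1.22), as log2 differences. The Plxnd1 value rests on 6 UMIs in the Prkcd gate. The 7 higher genes were Sema5a (1.27), Ephb1 (0.76), Slit3 (0.74), Epha4 (0.65), Epha5 (0.50), Efna5 (0.49) and Plxna2 (0.21). By family, 11 of 15 semaphorins and both Robos were lower there, while of the 10 Eph receptors 3 were higher and 5 lower. The Nts/Tac2 gate, the other gate with mostly lower calls, shared the lower Dcc, Slit2 and Robo2 and the higher Sema5a but had Sema6d and Nrp1 higher.

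In glia the guidance genes were mostly lower than in inhibitory neurons, with a few members that were far higher. Each glial class was set against all inhibitory neurons with the libraries as blocks, in 6468 genes, of which 43 were guidance genes. Of these 129 tests 103 (79.8%) were called, against 52.1% of all tests. The filter on low counts can admit a gene through the glial class where it is high. Plxnb3, Unc5b and Sema3d were near 0 in inhibitory neurons, so their calls are no support apart from the levels. In astrocytes 5 guidance genes were higher and 29 lower (61.1% of all genes called, 29.6% higher), with a median log2 difference of -1.50 beside -0.02 over all genes. In oligodendrocytes 10 were higher and 25 lower (51.8% and 24.3%), and in oligodendrocyte precursors 12 were higher and 22 lower (43.5% and 21.4%). All 9 tests of the Slits and 22 of 24 tests of the Eph receptors were lower in glia and none of these was higher. Glial nuclei were shallow, with a median of 3181 UMIs in oligodendrocytes and 3815 in astrocytes against 12275 in inhibitory neurons, and fewer nuclei of a type and less RNA per nucleus cannot be told apart in such sums. The glial sums also held the neuron marker Gad1, and what part RNA from neurons has in the glial levels was not tested.

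**Figure D3:**
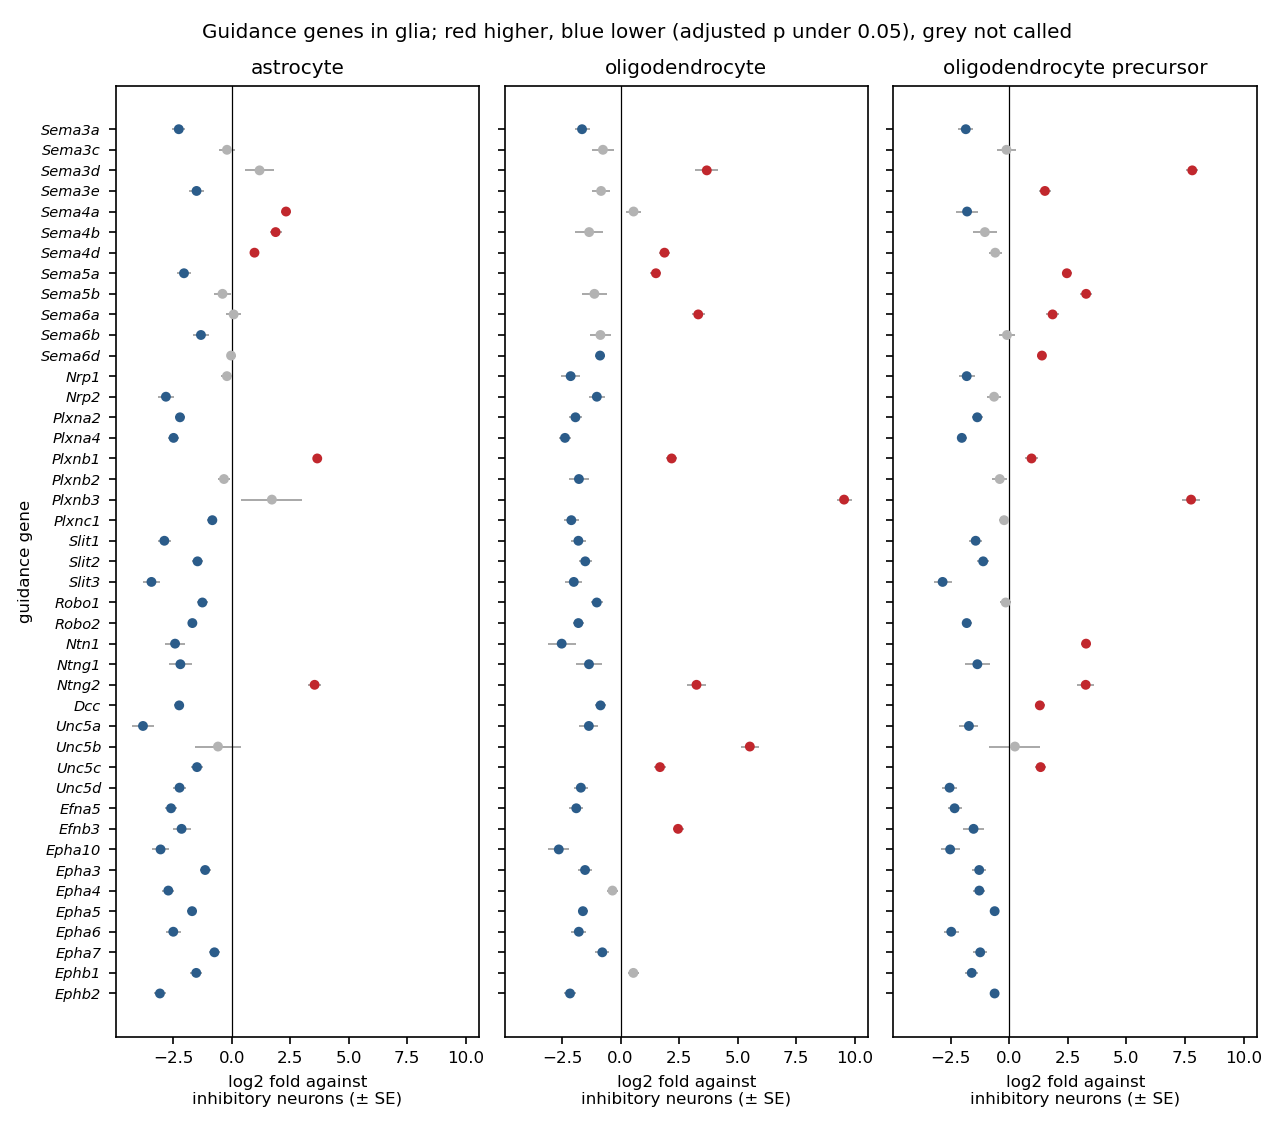
Log2 fold (± SE) of 43 guidance genes in astrocytes, oligodendrocytes and oligodendrocyte precursors against inhibitory neurons, red higher and blue lower at an adjusted p under 0.05, grey not called. Most points lie left of 0, and Plxnb3 in oligodendrocytes (9.55) and Sema3d in their precursors (7.81) lie furthest right.

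Plexins of the B type, receptors of class 4 semaphorins, were among the members called higher in glia. Plxnb3, which is known from the oligodendrocyte lineage, was at 359.9, 414 and 239 CPM in the fed libraries and 180.4 and 177 CPM in the fasted ones in oligodendrocytes and at 40.9, 71.3, 99.3, 54.9 and 65.3 CPM in their precursors. In inhibitory neurons it had 25 UMIs in all and no library above 0.453 CPM, and the log2 differences were 9.55 ± 0.32 and 7.76 ± 0.39. Plxnb1 was highest in astrocytes, at 232, 344, 229.9, 307 and 294 CPM, where inhibitory neurons ran from 17.2 to 30.4 CPM (log2 difference 3.65 ± 0.17, adjusted p = 1.4e-15). A class 4 ligand was highest in the same cells: Sema4a was at 133, 191, 132, 132 and 164 CPM in astrocytes and 27.5 to 31.7 CPM in inhibitory neurons, with a log2 difference of 2.32 ± 0.21. Ntng2 was called higher in all 3 glial classes, with log2 differences of 3.54 ± 0.29, 3.24 ± 0.41 and 3.26 ± 0.37 in astrocytes, oligodendrocytes and precursors.

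Oligodendrocytes and their precursors shared some members and differed in others. Sema3d, a secreted class 3 semaphorin, was at 500.4, 614 and 246 CPM in the fed libraries and 639.9 and 372 CPM in the fasted ones in the precursors, at 37.9, 27.3, 14.5, 20.0 and 34.4 CPM in oligodendrocytes and at 1.39 to 2.75 CPM in inhibitory neurons. The precursors lay above the oligodendrocytes in every library. The log2 differences from inhibitory neurons were 7.81 ± 0.25 and 3.68 ± 0.49. Unc5b went the other way, at 94.7, 91.0, 72.4, 80.2 and 68.9 CPM in oligodendrocytes and with 2 UMIs in the precursors. Its log2 difference was 5.52 ± 0.38 in the former and was not called in the latter (0.23 ± 1.09). Precursors had Sema5b higher, at 449, 291, 392, 274 and 239 CPM (3.28 ± 0.27), and were the only glial class with Ntn1 (3.27) and Dcc (1.30) called higher. Both were lower in oligodendrocytes (-2.52 and -0.86). The difference between the glial classes was not tested itself. Ephrin B3 (Efnb3), named after its values were seen, was higher in oligodendrocytes (2.45) and lower in precursors (-1.53).

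Plxnb3 and Sema3d were among the leading genes in both oligodendrocytes and their precursors. The nuclei of this lineage are known for SOX factors, and the promoter windows of the pair were searched for the core ACAAAG.

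Plxnb3 (chrX:73756853-73757102, plus strand): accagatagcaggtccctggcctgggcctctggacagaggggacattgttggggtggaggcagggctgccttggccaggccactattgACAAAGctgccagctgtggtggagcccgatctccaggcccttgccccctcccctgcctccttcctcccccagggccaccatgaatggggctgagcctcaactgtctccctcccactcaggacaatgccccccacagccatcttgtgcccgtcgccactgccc
Sema3d (chr5:12382916-12383165, plus strand): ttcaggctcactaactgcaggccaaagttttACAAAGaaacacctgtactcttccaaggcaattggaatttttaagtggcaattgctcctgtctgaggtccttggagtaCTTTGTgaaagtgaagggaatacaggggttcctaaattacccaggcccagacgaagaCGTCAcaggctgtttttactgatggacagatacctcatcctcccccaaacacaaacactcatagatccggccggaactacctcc

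The Plxnb3 window held ACAAAG once and the Sema3d window once on each strand, beside the cyclic AMP response core TGACG on the other strand. Of the other leading genes of the lineage, Unc5b had 2 GC boxes and no ACAAAG in its window, and Sema5b had no match to any of the motifs. ACAAAG was found in 16.5% of all windows and in 6 of 61 guidance genes, and TGACG in 17.9% and 7 of 61.

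The next question was whether fasting moved these genes. Fasted and fed libraries were compared in 15 classes: all inhibitory neurons, the 11 gates and the 3 glial classes. In the Prkcd gate 1 of 43 guidance genes was called, against 0.396% of the 9099 genes tested, and in the other 14 classes none of 582 tests was called, against 0.0505% of all. By edgeR's quasi-likelihood test 64 of these 582 (11%) were at an unadjusted p under 0.05, where 4.78% of all tests were. The tests repeat genes over classes that share libraries, so they are not independent. Of the 64, 13 were in the Dlk1 gate, whose fasted replicate 1 holds 11 nuclei. With the Prkcd gate there were 70, among them Slit1 and Plxnc1 in 8 classes each and Epha10 in 7. Over all 15 classes DESeq2 called 2 of 625 guidance tests (0.32%, beside 0.151% of all tests), both of Slit1. The likelihood ratio test of edgeR, which the study used, called 5 (0.8%, beside 0.537%), of which 3 were of Slit1. By that test the others were Epha10, higher in the Calcrl gate (1.08, adjusted p = 0.00874), and Plxnc1, lower in the Nts/Tac2 gate (-0.90, adjusted p = 0.029). The gene called by the quasi-likelihood test was Slit1 (chr19:41588676-41732268, minus strand, GRCm39), 1 of the 3 secreted Robo ligands. In the Prkcd gate it was at 27.7, 29.1 and 19.5 CPM in the fed libraries and 94.9 and 95.9 CPM in the fasted ones. Both fasted libraries lay above the 3 fed ones by more than the fed libraries' own spread (25.4 ± 5.20 CPM, SD, n = 3), with a log2 difference of 1.93 ± 0.24 (SE) and adjusted p = 0.00275 by edgeR's quasi-likelihood test. Without fed replicate 3, the library of the Cre mice, the log2 difference was 1.71 with adjusted p = 0.0562, and the call was lost.

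Slit1 was higher in fasted libraries in 11 of the 12 classes where it was tested, and the ranges of fed and fasted libraries did not overlap in 9 of them. The classes share libraries, and the inhibitory neurons contain the gates, so these are not independent. How many other genes do so was not counted. The largest difference was in the Nts/Tac2 gate, at 2.01, 5.78 and 4.64 CPM in the fed libraries and 22.6 and 34.4 CPM in the fasted ones, a log2 difference of 2.68 ± 0.53 that missed the threshold (adjusted p = 0.0776) and rests on 60 UMIs. In all inhibitory neurons it was at 70.2, 60.8 and 61.1 CPM in the fed libraries and 108 and 92.2 CPM in the fasted ones (0.63 ± 0.14, adjusted p = 0.354), and in the Nkx2-1 gate, the exception, at 87.0, 74.6, 74.4, 22.8 and 98.9 CPM in the same order of libraries. The test of whether the Slit1 difference varied in size between gates gave different calls by tool and setting. By edgeR's quasi-likelihood test no pair of gates passed, with a smallest adjusted p of 0.0881 for the Nkx2-1 against the Nts/Tac2 gate, while without fed replicate 2 the Foxp2 and Prkcd gates passed (adjusted p = 0.0465) and without a filter on low counts 12 pairs did. By the likelihood ratio test 6 pairs passed, with the Nts/Tac2 or Prkcd gate as the one with the larger increase in each.

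Shares of nuclei gave the same order for Slit1 at matched depth. With each nucleus thinned to 2000 UMIs, which left 423 of 424 nuclei, Slit1 was found in 7.14, 10.7 and 5.13% of Prkcd nuclei in the fed and 16.3 and 16.0% in the fasted libraries. In astrocytes at the same depth, where Slit1 is low, the share was 1.48% of 405 nuclei. Without thinning the Prkcd shares were 18.6, 30.4 and 21.4% in fed and 38.4 and 60% in fasted libraries, with a median of 13494.5 UMIs in these nuclei and 3815 in astrocytes. Markers of other classes were compared in the same nuclei. The 6 astrocyte markers summed to 43.7, 41.1 and 51.0 CPM in fed and 113 and 87.2 CPM in fasted Prkcd nuclei, and the excitatory markers to 1.46, 2.57 and 2.1 CPM in fed and 1.51 and 6.0 CPM in fasted ones. Their part in the Slit1 difference was not tested. Slit1 itself was at 0, 5.17 and 8.62 CPM in the fed libraries and 16.0 and 17.9 CPM in the fasted ones in astrocytes, below the level of the Prkcd gate in each library. In the excitatory neurons, whose levels are given at the end, Slit1 was above the Prkcd gate in each library. Before nuclei were kept, the fed libraries held 4657, 2347 and 1694 barcodes and the fasted ones 7850 and 7291. What part these have in the Slit1 difference was not tested either. The level of the gate's own marker Prkcd was 728.5, 669 and 712 CPM in fed and 659.6 and 598 CPM in fasted libraries, and without called doublets the log2 difference of Slit1 was 1.84 (adjusted p = 0.00349).

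**Figure D4:**
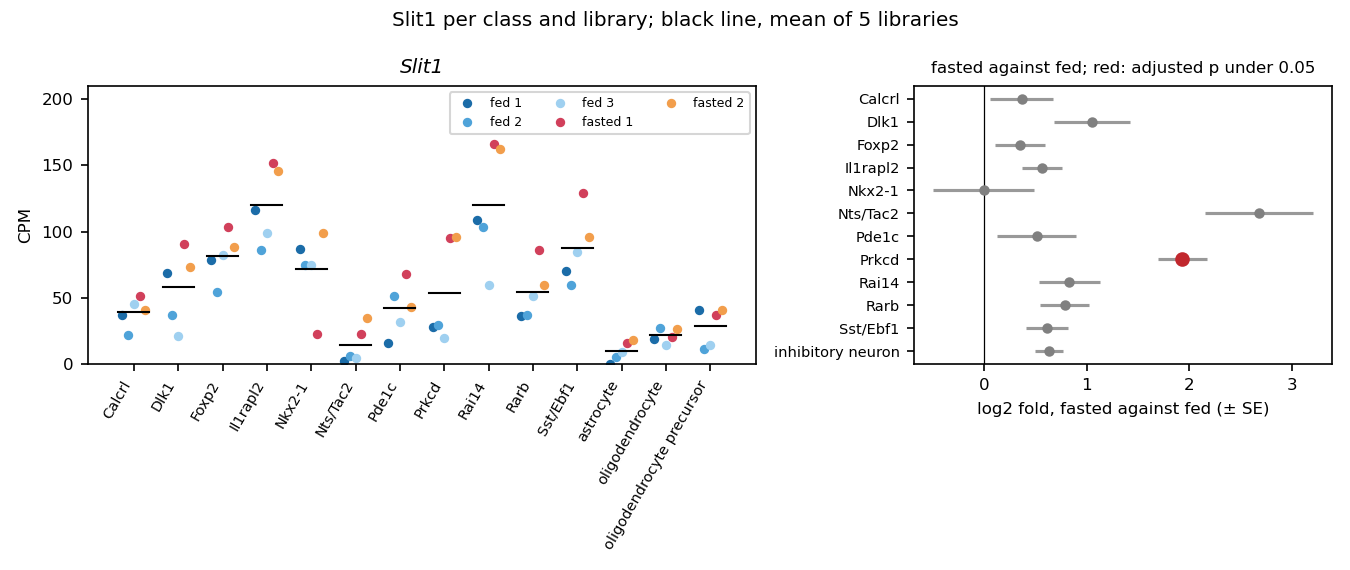
Left, Slit1 level (CPM) in each class and library, with blue points for fed and red and orange points for fasted libraries and a black line for the mean of 5; right, log2 fold (± SE) of fasted against fed in the 12 classes tested, red where the adjusted p was under 0.05. In the Prkcd gate the fasted libraries sit at 94.9 and 95.9 CPM and the fed ones at 19.5 to 29.1 CPM.

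The preparation was taken as a block by replicate number, which pairs replicates 1 and replicates 2 and leaves fed replicate 3 without a partner. With it 17 of 625 tests of guidance genes were called (2.72%), in 8 genes, where 1.1% of all tests were. Slit1 was among them in the Prkcd gate (log2 1.71, adjusted p = 5.58e-08), the Nts/Tac2 gate (2.75, adjusted p = 0.00955), the Rarb gate (0.93, adjusted p = 0.0078) and all inhibitory neurons (0.59, adjusted p = 5.67e-07). This fit has 1 residual degree of freedom per gene and leans on the spread of all genes. Fed replicate 3 has no partner and does not enter its folds. The Slit1 fold in the Prkcd gate thus rests on the same libraries as the run without fed replicate 3. In that run the call was lost, so the block is not separate support. The other calls were Epha10, higher in the Calcrl gate (0.99), the Rarb gate (0.61) and inhibitory neurons (0.50), Dcc, higher in the Nts/Tac2 gate (1.09) and the Prkcd gate (1.00), and Nrp1, lower in the Nts/Tac2 gate (-0.76) and inhibitory neurons (-0.42). Epha6 was called higher in the Prkcd gate (0.75) and in oligodendrocytes (1.21) and lower in the Foxp2 gate (-0.49). In inhibitory neurons Plxnc1 (-0.30), Sema3a (-0.31) and Slit2 (-0.29) were called lower. Epha10 and Plxnc1 were named after their values were seen.

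Without a test, fasted libraries lay wholly above the fed ones in 64 of 625 class and gene pairs (10.2%) and wholly below in 58 (9.28%), where the shares over all genes were 10.9% and 8.33%, so as a group the guidance genes separated about as often as other genes did. Some members did so in many classes, and how many other genes do so was not counted. Epha4 lay above in 10 of 15 classes and Epha10, an Eph receptor without kinase activity, in 9 of 12, while Nrp1 lay below in 7 of 13 and Plxnc1, the receptor of Sema7a, in 7 of 14. Epha4 in inhibitory neurons was at 206, 201 and 199 CPM in the fed libraries and 250.1 and 219 CPM in the fasted ones (0.20 ± 0.12, adjusted p = 1), and Nrp1 at 113, 113 and 100.1 CPM in the fed libraries and 79.0 and 91.9 CPM in the fasted ones (-0.37 ± 0.12, adjusted p = 0.712). Both fasted libraries were also those with the higher mitochondrial shares, and what part that has in these orders was not tested.

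**Figure D5:**
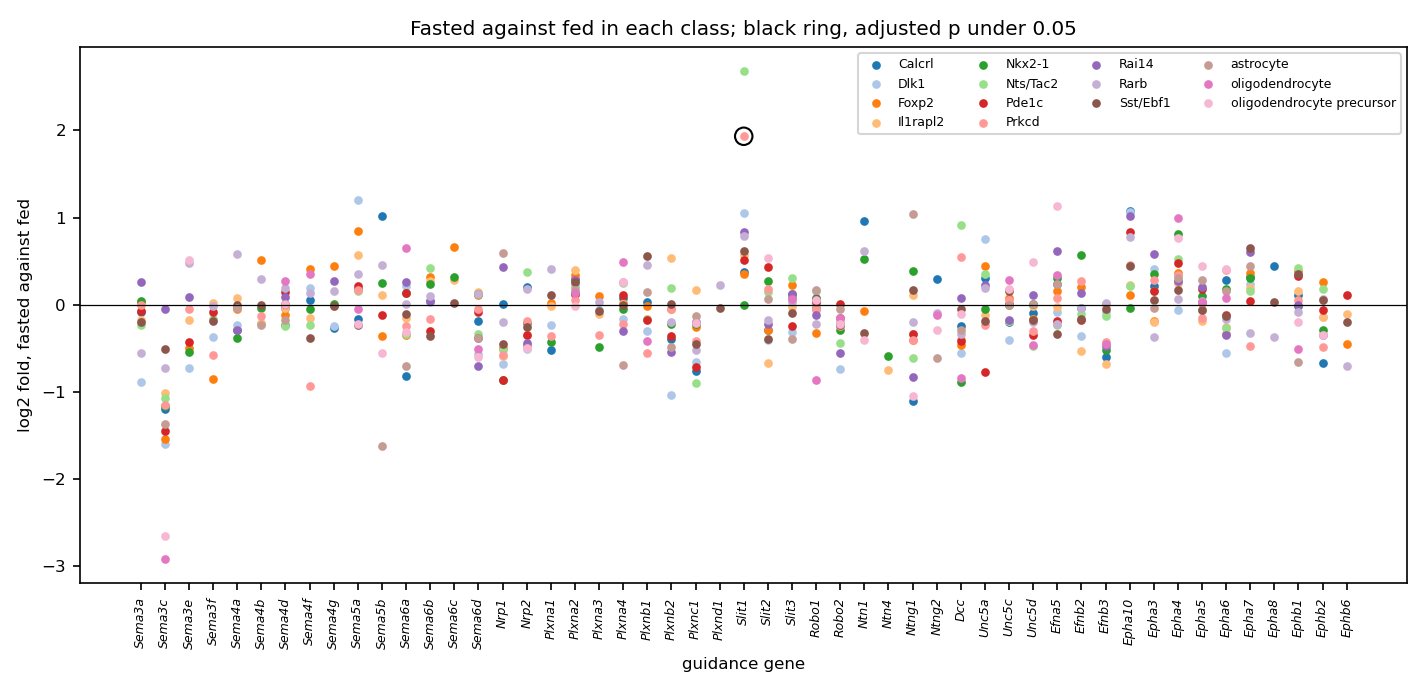
Log2 fold of fasted against fed for the guidance genes tested in the class contrasts (horizontal axis), 1 point for each gate or glial class in which the gene was tested, with a black ring at an adjusted p under 0.05. The ring marks Slit1 in the Prkcd gate (1.93), and the points of Sema3c all lie below 0.

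Whether a fasting difference depended on the gate was tested for all 55 pairs of gates. Of 2915 tests of guidance genes 1 was called by edgeR's quasi-likelihood test, where 0.00542% of all tests were. At an unadjusted p under 0.05 were 192 (6.59%), beside 4.95% of all tests, and the likelihood ratio test called 8 (0.274%, beside 0.0371%), 6 of them of Slit1. Pairs share gates and libraries, so these tests are not independent. The 1 call was Dcc between the Nkx2-1 and Nts/Tac2 gates. In the Nkx2-1 gate Dcc was at 870.3, 1714 and 1136 CPM in the fed libraries and 297 and 1019 CPM in the fasted ones, and in the Nts/Tac2 gate at 68.2, 209.9 and 165 CPM in the fed libraries and 281 and 306 CPM in the fasted ones. The Nkx2-1 fold minus the Nts/Tac2 fold was -1.87 ± 0.40 on the log2 scale (SE, adjusted p = 0.0356), while by the same test without a block neither gate alone passed the threshold (-0.89 ± 0.44 and 0.92 ± 0.32, adjusted p = 1 and 0.395). With the preparation as a block Dcc was called in the Nts/Tac2 gate (1.09, adjusted p = 0.000359), as it was without a filter on low counts (0.91, adjusted p = 0.0117). The call was lost without fed replicate 1, 2 or 3 (adjusted p = 0.105, 0.202 and 0.0516) or without fasted replicate 1 (-1.30, adjusted p = 0.534), whose Nkx2-1 gate holds 13 nuclei.

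A pair of lists of genes that work with the guidance receptors was read beside them. Of 44 cytoplasmic effectors of guidance receptors, such as collapsin response mediators and kinases, 40 were tested between gates and 182 of 440 tests (41.4%) were called, beside 57.6% for the guidance genes and 24.3% for all genes. The 27 other guidance cues, receptors and co-receptors, such as Neo1, Flrt and Dscam genes, had 121 of 264 tests (45.8%) called. In glia 71 of 111 (64%) and 40 of 60 (66.7%) were called, with 32 higher and 39 lower calls of effectors and 20 and 20 of the others. Between fasted and fed libraries edgeR's quasi-likelihood test called 0 of 554 tests of the effectors, with 25 (4.51%) at an unadjusted p under 0.05, beside 5.06% of all tests. DESeq2 called 1 effector test (0.181%, beside 0.151% of all tests), and the fit with the preparation as a block called 5 (0.903%, beside 1.1%). The likelihood ratio test, which the study used, called 1 effector test (0.181%, beside 0.537%). Mical2 is among the effectors, and the study reports it as lowered by fasting in its Nts/Tac2 cluster. Its values in the gates are not given here. For the other cues the quasi-likelihood test called 0 of 291, with 17 (5.84%) at an unadjusted p under 0.05. DESeq2 and the likelihood ratio test called 0 and the block 3 (1.03%).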

How the data were processed

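Single-nucleus RNA was measured in 5 libraries of pooled tissue (fed, n = 3; fasted, n = 2). The authors deposited whole-number UMI counts per gene and barcode, made with Cell Ranger (version 2.1.1 and build mm10 in the submitters' processing notes, 5.0.0 in the file headers), and the study's methods count introns. Counts were read as deposited. Nuclei with 500 to 8000 genes and under 0.8% mitochondrial counts were kept (7161 of 23839 barcodes), and 72 called doublets (1.01%) stayed in. Glia were taken at a marker score of 2.0 and neuron gates at a score of 1.0 that led the next gate by 0.5, over log values per 10000 counts with a pseudocount of 1. Classes with at least 10 nuclei in every library were summed per library, which gave 9763452 to 29703855 UMIs per library.

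Sums were tested with edgeR 4.0.16 (quasi-likelihood test, TMM scaling, filter on low counts) in R 4.3.3, with libraries as blocks between classes and no block between fasted and fed, and p-values were adjusted by the Benjamini-Hochberg method over all genes of a contrast. DESeq2 1.42.0, edgeR's likelihood ratio test, other scaling, filters, gates and left-out libraries were the alternatives. The script was tested on simulated counts. In all inhibitory neurons, deviations of equal-numbered fed and fasted libraries correlated at 0.413 and 0.621. With 2 fasted libraries the crossed pairs mirror these, at -0.413 and -0.621. Correlations of equal-numbered libraries were weaker in the single gates and glial classes. They were 0.115 and 0.226 in the Prkcd gate, 0.161 and 0.198 in the Nts/Tac2 gate, 0.157 and 0.321 in the Rarb gate and -0.00702 and -0.0683 in oligodendrocyte precursors. Median UMIs per nucleus were 8326 and 6608 in fed and fasted replicates 1 and 14886 and 16367 in replicates 2. What part depth has in these correlations was not tested. Fed replicate 3 was not compared, and the match of the pairs to the study's preparations is by number. Since each library is a pool from 2 mice, p-values measure the spread between pools.

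Members and lists were chosen with earlier results of these data known. In each gate and glial class the text names the 3 guidance genes with the largest higher call, besides every gene called after fasting, Dcc, Nrp1, Nrp2 and the member of each family with the highest level in inhibitory neurons. Other members were named after their values were seen. Promoter windows were those of RefSeq (GRCm38.p6), of 250 bases, gene positions came from the GRCm39 annotation, and neither depends on the build of the counts. Limits on a count of 0 cover counting error only. The SE of a log2 difference was derived from the fold and its test statistic, and an SD is over libraries. Both therefore include the spread between libraries.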

Additional observations from a re-analysis of the deposited data

Results flagged for a closer look

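In 4 of the 42 levels of the named genes that were examined, 1 library lay far from the other 4, by Dixon's criterion for 5 samples (0.71), which chance meets in about 1 in 20 groups. Nrp1 in the Nts/Tac2 gate was at 556.6 CPM in fed replicate 2 and at 231 to 323 CPM in the other libraries, and Sema6d in the same gate and library was at 2225 CPM against 1263 to 1521 CPM. Sema5a in the Nts/Tac2 gate was at 169.0 CPM in fed replicate 3 and at 215 to 233 CPM elsewhere. Sema6c in the Rai14 gate was at 63.4 CPM in fasted replicate 1, from a gate with few nuclei. All of these genes stayed called in these gates without each of the 5 libraries in turn.

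The fasting difference of Dcc, the netrin receptor, had opposite signs in a pair of gates. The Nkx2-1 fold minus the Nts/Tac2 fold was -1.87 on the log2 scale, with an adjusted p of 0.0356 by edgeR's quasi-likelihood test of the difference itself. It rests in part on fasted replicate 1, where Dcc was at 297 CPM in 13 nuclei of the Nkx2-1 gate against 870.3 to 1714 CPM in the other libraries of that gate, and without that library the difference was -1.30 (adjusted p = 0.534).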

How the results depend on the processing

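Of 45 named log2 differences, 42 kept their direction and their side of the threshold under every alternative run. Over 582 alternative values 573 did so, 6 lost the call, 3 gained it and 0 changed sign. The calls of guidance genes between gates (323) ran from 281 to 350 and those in glia (103) from 97 to 134 over the alternatives. Between gates 281 came without a library block, where 19.2% of all tests were called, and 350 without a filter on low counts, where 13.9% were. In glia 97 came without fasted replicate 2, where 50.4% of all tests were called, and 134 without a filter, where 26.7% were. The single call between fasted and fed became 2 with DESeq2 and 5 with edgeR's likelihood ratio test, where 0.151% and 0.537% of all tests were called. It became 16 of 962 tests without a filter on low counts and 2 of 624 with called doublets removed, where 0.404% and 0.0892% of all tests were called. Leaving out 1 fed library gave 0 or 1. It was 0 without fed replicate 3 (Slit1 in the Prkcd gate, 1.71, adjusted p = 0.0562 by edgeR's quasi-likelihood test). The Slit1 difference there was 1.93 without fasted replicate 1 and 1.93 without fasted replicate 2. Other guidance tests were also called in these runs, which hold 1 fasted library and so have no spread within that group. The single call for a fasting difference that depends on the gate became 2 with DESeq2 and 8 with the likelihood ratio test (6 of Slit1), where 0.0254% and 0.0371% of all tests were called. It became 37 of 3795 tests without a filter (12 of Slit1), where 0.146% of all tests were called. With a stricter lead of the gate it was 0 (Dcc, -1.26, adjusted p = 0.441 by edgeR's quasi-likelihood test), and leaving out 1 fed library gave 0 to 1. The causes were not tested. The percentage of Slit1 nuclei, fasted minus fed, moved from 8.46 to 12.9 points in the Prkcd gate and from 3.35 to 6.91 in the Nts/Tac2 gate when nuclei were thinned to 4000 instead of 2000 UMIs.

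With the replicate block, which pairs libraries of equal number, 17 guidance tests were called between fasted and fed instead of 1. Slit1 in the Nts/Tac2 gate passed with the block (2.75, adjusted p = 0.00955), with the likelihood ratio test (2.68, adjusted p = 0.000228) and without a filter (2.67, adjusted p = 0.000137). The contrasts between gates hold the library as a block already, and without it they called 281 tests. Over its alternatives the adjusted p of Slit1 in the Prkcd gate ran from 3.14e-10 to 0.0562.

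Depth was lower in glia than in neurons, with 838182 UMIs in all oligodendrocytes against 80012495 in inhibitory neurons. Excitatory neurons, microglia, vascular cells and the Tac1 and Vdr gates had under 10 nuclei in at least 1 library and were not tested.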

Other observations

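Sema3c, a secreted semaphorin that was singled out after its values were seen, differed between libraries of the same group. It was lower in fed replicate 2 and fasted replicate 2 than in the 3 other libraries in 12 of the 14 gates and glial classes. In inhibitory neurons it was at 118, 49.1 and 186 CPM in the fed libraries and 121 and 39.7 CPM in the fasted ones, and in astrocytes at 152, 5.17 and 385 CPM and at 152 and 14.9 CPM. The exceptions were the Nkx2-1 gate, at 162, 305 and 258 CPM in fed and 122 and 110 CPM in fasted libraries, and the Rai14 gate, at 253, 259 and 187 CPM and at 246 and 216 CPM, where Sema3c was called higher than in the other gates (1.78 ± 0.30 and 1.96 ± 0.33 on the log2 scale). Its fasted minus fed difference was below 0 in all 15 classes and passed the threshold in none of them by edgeR's quasi-likelihood test as run. It was called lower in 9 classes without the filter on low counts and in oligodendrocyte precursors with called doublets removed (-3.83, adjusted p = 0.00657). With the replicate block, with DESeq2 and with the likelihood ratio test Sema3c was called in no class. What part the library and the fasting have in these values was not tested.

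Several members kept 1 direction after fasting in nearly every class without passing edgeR's quasi-likelihood test as run. Plxna2 was higher in 14 of 15 classes, Robo2 was lower in 14 of 15 and Plxnc1 was lower in 13 of 14. Plxnc1 was called in some of the alternative runs. The classes share the 5 libraries, so these counts are descriptions, and the share of all genes that keep 1 direction was not counted. In the gates that were too small for a test, Dcc was at 818 to 1343 CPM in the 43 nuclei of the Tac1 gate, and Slit1 was at 321, 277 and 157 CPM in fed and 749 and 325 CPM in fasted libraries in the 71 excitatory neurons, above the inhibitory neurons in each library.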
